A study of Mus musculus with 12 samples.

Results

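SBE6 (Shh brain enhancer 6) is a neural enhancer of Shh, the gene of the morphogen Sonic hedgehog, and the contacts described here are the ligation products that join it to the rest of the Shh locus. They were taken as all pairs of restriction fragments with 1 fragment midpoint at chr5:28875000-28915000 (mouse build mm9) and the other outside it, leaving out the 90 pairs whose other midpoint lay at the Shh gene, chr5:28770000-28810000. This gave 3220 of the 57970 fragment pairs among 341 fragments that every library shares, which span chr5:28317087-30005000. The window holds 10 fragments, Shh_169 to Shh_181 in the submitters' numbering, which lie at chr5:28876512-28899338 and are 502 to 5943 bp long. Of the 3220 pairs, 1606 were above 0 in at least 1 library and 1614 were at 0 in all of them.

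Enhancers act on a promoter that can lie far away on the same chromosome, and Shh is a standard case: its enhancers are spread over a gene desert that runs to the ZRS, the limb enhancer inside an intron of Lmbr1. SBE2, SBE4 and SBE6 drive Shh in the developing brain and neural tube. The locus forms a contact domain bounded near Shh on one side and near Lmbr1 on the other, with housekeeping and developmental genes beyond each end.

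Contacts were measured by 5C (chromosome conformation capture carbon copy), in which crosslinked chromatin is cut with HindIII and religated, and oligonucleotides annealed to both sides of a ligation junction are joined, amplified and sequenced. The groups were neural progenitor cells (NPC; 46c embryonic stem cells kept 7 days in N2B27 medium; 2 biological replicates), 46c embryonic stem cells transfected as tSBE6-Vp64 (1 replicate), tSBE2-Vp64 (1 replicate) and tSBE(6+2-Vp64) (2 replicates), and 46c embryonic stem cells for which no transfection is named (ESC; 2 replicates). The 46c line carries a reporter in the Sox1 gene, and all groups derive from it. By knowledge of this locus rather than the labels, the prefix t stands for a TALE, an engineered DNA-binding protein directed to the named enhancer and carrying the activation domain Vp64. No cells transfected with a TALE lacking the activator were analysed here, so transfection and activation cannot be told apart. Nothing in the labels says that replicates came from separate cultures, so p-values measure only the spread between these samples.

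Values are signal: the authors' normalized value of a fragment pair, rescaled so that each library sums to 1000 over the shared fragments. The 12 matrices gave 11 distinct libraries after 1 NPC matrix, deposited under both biological replicates, was counted once, and technical replicates were averaged. The depth implied by the smallest step of each library ran from 988000 to 48216000 reads. In 1 library, technical replicate 1 of tSBE(6+2-Vp64) replicate 1, 1602 of the 1606 SBE6 pairs were above 0 and 82.9% of all signal lay over 50 kb, so values of that group that it moves by more than 1.5 times are also given without it, as replicate 1 from its other library. In the other 10 libraries, 459 to 1493 of those pairs were above 0. SBE6 contacts summed to 92.2, 88.9 and 84.3 in the 3 NPC libraries, 33.5 in tSBE6-Vp64, 75.2 in tSBE2-Vp64, 64.2, 47.9, 49.5 and 22.2 in tSBE(6+2-Vp64), and 26.9 and 31.6 in ESC.

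The strongest SBE6 contact joined it to a fragment in the SBE2 window, and it was higher in NPC than in ESC. The pair is Shh_178 (chr5:28884804-28887360, 2557 bp) with Shh_295 (chr5:29253038-29259186, 6149 bp), 370.03 kb apart, and it was the only SBE6 pair over 50 kb that held more than 0.5% of a library. The approximate position used for SBE2 is 345 kb from the centre of the SBE6 window. Shh_295 lies past it, inside a window of 20 kb to either side but outside one of 10 kb. Whether the contact is that of the enhancer itself was not tested. Its signal was 72.5, 67.5 and 63.5 in the NPC libraries, 5.24 in tSBE6-Vp64, 51.2 in tSBE2-Vp64, 11.5, 24.5, 29.2 and 6.40 in tSBE(6+2-Vp64), and 0.352 and 10.1 in ESC. Every NPC library lay above every other library, and tSBE2-Vp64 lay next. The 2 ESC replicates differed from each other by 28.7-fold, a spread as wide as much of the difference between groups.

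By replicate the pair averaged 66.7 ± 4.58 in NPC (SD, n = 2) and 5.24 ± 6.91 in ESC (SD, n = 2), a ratio of means of 12.7. The lowest NPC replicate was 6.27-fold above the highest ESC replicate. Tested among all 28769 fragment pairs, the NPC difference was 5.14 on the log2 scale (SE 1.17, limma adjusted p = 0.519) and did not pass the threshold of 0.05.

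**Figure D1:**
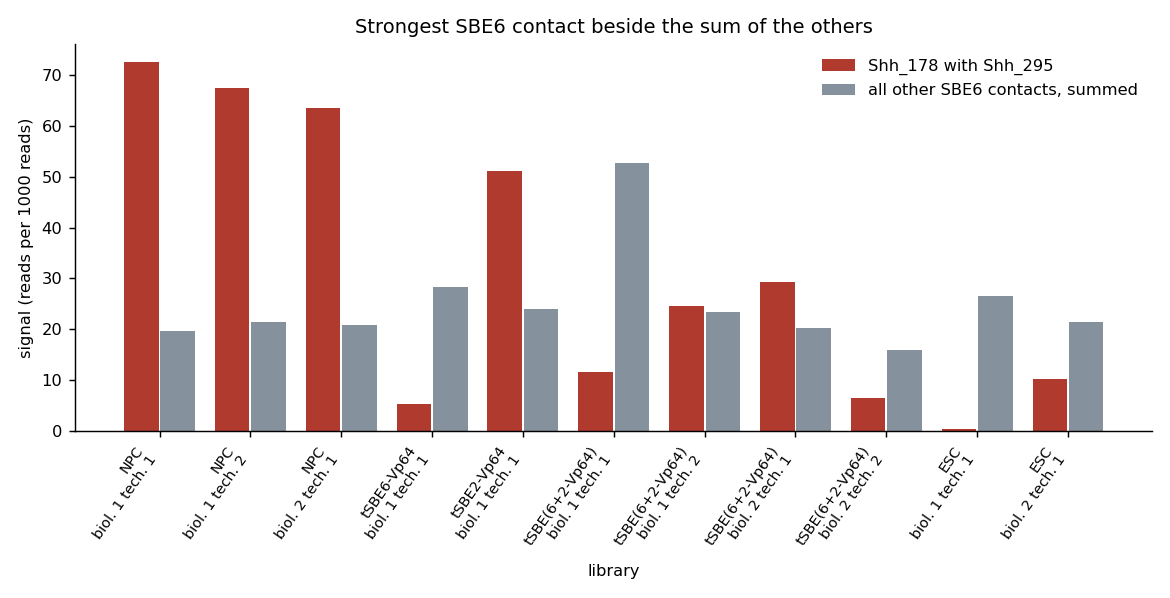
Signal (rescaled to a sum of 1000 per library, labelled as reads on the axis) of Shh_178 with Shh_295 (red) and of all other SBE6 contacts summed (grey) in the 11 distinct libraries. The red bars are highest in the 3 NPC libraries (63.5 to 72.5) and lowest in ESC replicate 1 (0.352), while the grey bars lie between 15.8 and 28.2 in 10 libraries and reach 52.7 in 1 tSBE(6+2-Vp64) library.

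This single pair made up 75.4% to 78.6% of the SBE6 signal in NPC libraries, 15.7% in tSBE6-Vp64, 68.1% in tSBE2-Vp64, and 1.31% and 32.0% in ESC. With it left out, the summed SBE6 signal was 19.7, 21.4 and 20.8 in NPC, 28.2 in tSBE6-Vp64, 24.0 in tSBE2-Vp64, 52.7, 23.4, 20.3 and 15.8 in tSBE(6+2-Vp64), and 26.5 and 21.5 in ESC. Without the pair, and with the libraries not rescaled, the 3 NPC libraries lay just below both ESC libraries. In these sums tSBE6-Vp64 lay above both, tSBE2-Vp64 lay between them, and the tSBE(6+2-Vp64) libraries lay on both sides. With libraries rescaled without the pair, the NPC replicates had 22.1 and 22.2, between the ESC replicates at 26.6 and 21.7. Rescaled without all 21 pairs over 50 kb that held more than 0.5% of a library, NPC had 37.8 and 34.9. ESC then had 26.6 and 24.7, so the place of NPC beside ESC depended on the scaling and on the pairs left out. The 24 pairs nearest to Shh_178 with Shh_295 on both axes averaged 0.104 to 0.139 in NPC and 0.0323 to 0.146 in ESC. The pair stood 523-fold to 648-fold above that mean in NPC and 10.9-fold to 69.2-fold above it in ESC.

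On the SBE6 side the high signal was at Shh_178 and not at the 2 fragments described next. Shh_295 joined to the window fragment Shh_176 had a mean signal of 5.79e-06 in NPC, 0.0327 in tSBE6-Vp64, 0.00588 in tSBE2-Vp64, 0.0383 in tSBE(6+2-Vp64) and 0.0441 in ESC. With Shh_180, the longest fragment of the window, it had 0.0698 in NPC, 0.0460 in tSBE6-Vp64, 0.0108 in tSBE2-Vp64, 0.0444 in tSBE(6+2-Vp64) and 0.0958 in ESC. The mean of neither pair was higher in NPC than in ESC.

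On the SBE2 side Shh_178 also had signal with fragments past Shh_295. Its pair with Shh_297 (chr5:29262464-29264721), the second strongest of all SBE6 contacts, had 2.37 and 2.22 in NPC, 0.221 in tSBE6-Vp64, 2.58 in tSBE2-Vp64, 1.47 (2.83 without the library that stands apart) and 2.93 in tSBE(6+2-Vp64), and 0.0525 and 2.73 in ESC. ESC replicate 2 was thus level with NPC, while ESC replicate 1 was far below (log2 difference 2.60, SE 1.42, limma adjusted p = 0.918 for NPC against ESC). Shh_178 with Shh_299 had 0.214 and 0.162 in NPC, 0.0823 in tSBE6-Vp64, 0.404 in tSBE2-Vp64, 0.0883 (0.136 without the library that stands apart) and 0.111 in tSBE(6+2-Vp64), and 0.0542 and 0.409 in ESC, so its NPC mean was below its ESC mean. Shh_178 with Shh_301 had 0.443 and 0.352 in NPC, 0.0288 in tSBE6-Vp64, 0.358 in tSBE2-Vp64, 0.0813 and 0.203 in tSBE(6+2-Vp64), and 0.0391 and 0.0308 in ESC, with NPC above ESC in both replicates.

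The strongest long-range pairs elsewhere in the region were, when summed, also high in NPC and tSBE2-Vp64 and lowest in ESC replicate 1. Besides the SBE6 pair, 20 pairs over 50 kb held more than 0.5% of a library, and none shares a fragment with it. Together they summed to 385 and 341 of 1000 in NPC, 31.6 in tSBE6-Vp64, 259 in tSBE2-Vp64, 90.2 and 161 in tSBE(6+2-Vp64), and 1.86 and 118 in ESC. Here ESC replicate 2 lay above tSBE(6+2-Vp64) replicate 1, unlike in the SBE6 pair. All 20 were higher in tSBE2-Vp64 than in tSBE6-Vp64 and in ESC replicate 2 than in ESC replicate 1, and 15 of 20 were higher in both NPC replicates than in both ESC replicates. The 20 were picked for holding over 0.5% of any library, which favours libraries with strong long-range pairs. These counts are therefore a description, with no share over all pairs over 50 kb beside them. Among the 27208 pairs over 50 kb the SBE6 pair had rank 3 in each NPC library and rank 5 in each ESC library. Whether a property of these libraries sets the level of such pairs was not tested.

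Across 40-kb windows of the region, the one SBE6 contact that passed the test in NPC was that with the window holding SBE2. Its mean signal per fragment pair was 1.13 and 1.03 in NPC, 0.114 in tSBE6-Vp64, 0.851 in tSBE2-Vp64, 0.328 and 0.331 in tSBE(6+2-Vp64), and 0.0310 and 0.218 in ESC. It rose in NPC by 3.64 on the log2 scale (SE 1.03, 95% interval 1.63 to 5.65, limma adjusted p = 0.0206 over 903 window pairs). Of 42 SBE6 window pairs, 1 was called higher and 0 lower in NPC. Over all 903 window pairs, 2.21% were called higher, 0.111% lower and 2.33% in either direction, and the 1 of 42 is near that background. At an unadjusted p under 0.05 by limma, 1 of 42 passed, against 8.86% of all window pairs.

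This call rested on the pair Shh_178 with Shh_295. Without that pair the log2 difference was 0.53 (limma adjusted p = 0.997), and without all 21 long-range pairs it was 1.14 (limma adjusted p = 0.248). Leaving out ESC replicate 1 gave 2.29, and leaving out ESC replicate 2 gave 4.99, in fits that lose the spread between the ESC replicates. Without NPC replicate 1 or 2 the log2 difference was 3.58 or 3.71, and the call was lost each time. Without tSBE(6+2-Vp64) replicate 1 or 2 it stayed at 3.64, and the call was again lost. It was also lost without the library that stands apart (log2 difference 3.64, SE 1.02, limma adjusted p = 0.135). The main fit pooled its variance over all window pairs, with 2709 degrees of freedom, although these pairs come from the same few replicates. Its p-value and interval thus take the spread as known. The fits without tSBE(6+2-Vp64) replicate 1, replicate 2 or that library had 9.91, 9.72 and 11.9 degrees of freedom.

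In the transfected cells no SBE6 window passed. For the SBE2 window, tSBE6-Vp64 differed from ESC by 0.43 on the log2 scale, tSBE2-Vp64 by 3.30 (limma adjusted p = 0.461) and tSBE(6+2-Vp64) by 1.94 (limma adjusted p = 0.995). Over all window pairs, 0% were called in tSBE6-Vp64 against ESC, 0.443% were higher in tSBE2-Vp64 and 0.332% were higher in tSBE(6+2-Vp64). At an unadjusted p under 0.05 by limma, 0 of 42 SBE6 windows passed in tSBE6-Vp64, 2 in tSBE2-Vp64 and 0 in tSBE(6+2-Vp64), against 0.554%, 3.88% and 3.99% of all window pairs. The log2 differences of the SBE2 window depended on the ESC replicates. Without ESC replicate 2 they were 1.78 in tSBE6-Vp64, 4.65 in tSBE2-Vp64 and 3.29 in tSBE(6+2-Vp64). Without ESC replicate 1 the difference was 1.95 in tSBE2-Vp64. Such fits lose the spread between the ESC replicates, so no call is read from them. The direct contrast of tSBE6-Vp64 with tSBE2-Vp64 called 0 of 42 SBE6 windows, against 0% of all window pairs, with 2 of 42 at an unadjusted p under 0.05 by limma, against 3.88% of all. In it the SBE2 window differed by -2.87 on the log2 scale (95% interval -5.72 to -0.03, limma adjusted p = 0.989), with tSBE6-Vp64 the lower of the 2 single libraries. No ESC value enters this difference, and it stayed at -2.87 without either ESC replicate. Its SE fell from 1.45 to 0.48 or 0.46 in those fits, as the spread is pooled over groups. tSBE6-Vp64 and tSBE2-Vp64 have 1 replicate each, and their spread is assumed to be that of the other groups.

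**Figure D2:**
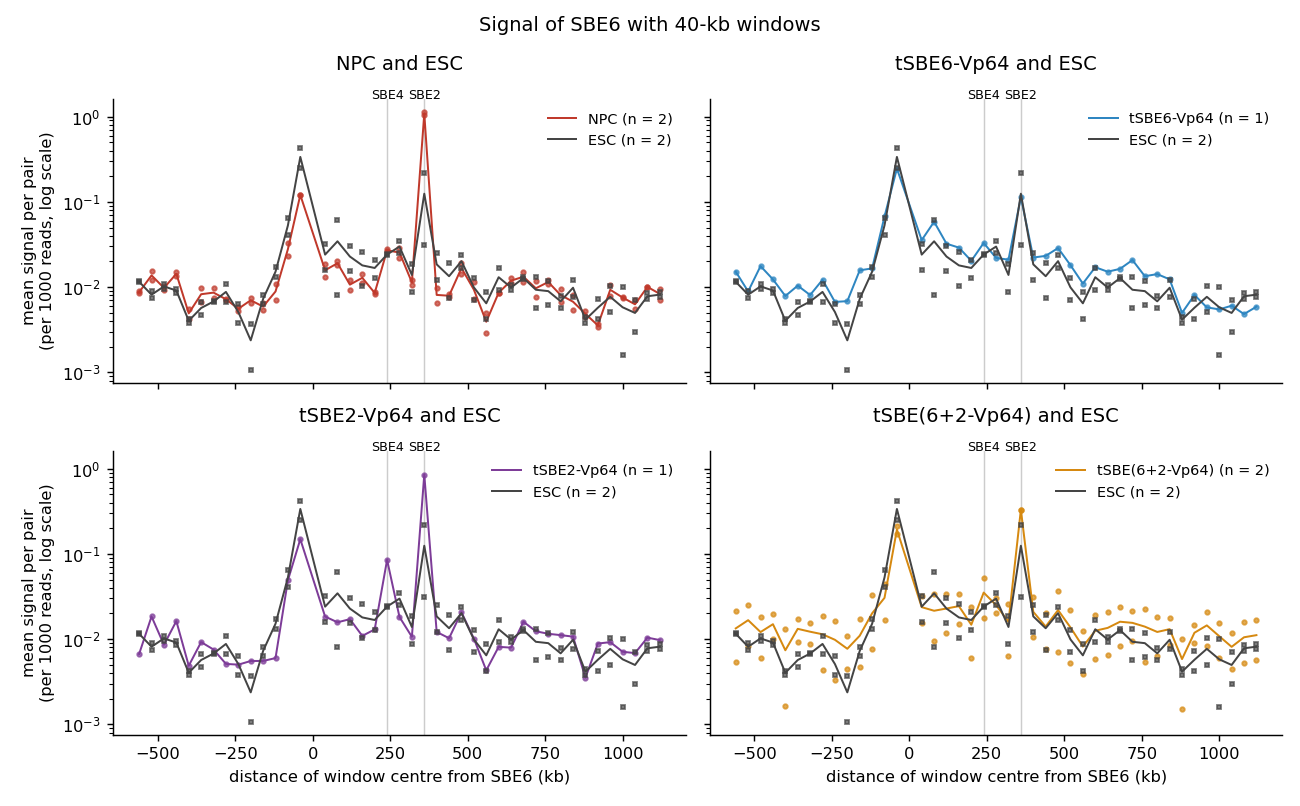
Mean signal per fragment pair (rescaled to 1000 per library, labelled as reads on the axis, log scale) of SBE6 with each 40-kb window, against the distance of the window centre from SBE6 in kb, with Shh on the negative side. Points are biological replicates and lines are group means. The peak at the window holding SBE2 reaches 1.13 in NPC and 0.851 in tSBE2-Vp64. ESC has its highest value at the window next to SBE6 on the Shh side.

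By group means, SBE6 contacted the SBE2 window more than other windows at the same distance were contacted, in every group. Among 34 window pairs 360 kb apart it ranked first in all 5 groups, with a mean of 1.08 in NPC, 0.114 in tSBE6-Vp64, 0.851 in tSBE2-Vp64, 0.330 in tSBE(6+2-Vp64) and 0.125 in ESC. The median of those 34 pairs was 0.00819 in NPC, 0.0146 in tSBE6-Vp64, 0.00963 in tSBE2-Vp64, 0.0134 in tSBE(6+2-Vp64) and 0.0101 in ESC. These ranks use group means, include the strongest fragment pair and are a description. The ESC mean combines 0.0310 in replicate 1 with 0.218 in replicate 2, and ranks by replicate were not taken.

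Close to SBE6, the window on its Shh side had the highest signal per fragment pair of all 42 windows in the ESC mean, and its values were lower in every other group. Summed over pairs, the SBE2 window holds more in the ESC mean, having 65 pairs against 10, but not in ESC replicate 1. The mean signal per pair of the window on the Shh side was 0.121 and 0.120 in NPC, 0.245 in tSBE6-Vp64, 0.149 in tSBE2-Vp64, 0.170 and 0.215 in tSBE(6+2-Vp64), and 0.423 and 0.250 in ESC. Every replicate of the other groups, NPC and transfected alike, lay below both ESC replicates. The log2 difference of -1.41 (SE 0.85) in NPC did not pass (limma adjusted p = 0.711). Without ESC replicate 2 it was -1.79, in a fit that loses the spread between the ESC replicates. The strongest of its 10 fragment pairs was Shh_169 with Shh_168, adjacent fragments that meet near the window's edge with midpoints 3.76 kb apart, with 0.614 and 0.522 in NPC, 1.06 in tSBE6-Vp64, 0.633 in tSBE2-Vp64, 0.755 (1.36 without the library that stands apart) and 1.06 in tSBE(6+2-Vp64), and 2.07 and 1.24 in ESC. The log2 difference of that pair in NPC was -1.50 (SE 0.39, limma adjusted p = 0.699). Signal between fragments within the SBE6 window was also lower in NPC, with 5.93, 6.93 and 8.23 in NPC libraries and 22.5 and 20.7 in ESC. It was 18.6 in tSBE6-Vp64 and 10.7 in tSBE2-Vp64. In tSBE(6+2-Vp64) it was 2.31 in the library that stands apart and 16.8, 10.4 and 23.0 in the others. In NPC the 20 long-range pairs named above took 385 and 341 of the 1000. With all 21 long-range pairs removed and the libraries rescaled, the window next to SBE6 had 0.222 and 0.201 in NPC, 0.255 in tSBE6-Vp64, 0.216 in tSBE2-Vp64, 0.196 and 0.258 in tSBE(6+2-Vp64), and 0.424 and 0.287 in ESC. NPC and all transfected replicates were thus still below both ESC replicates.

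On the far side the nearest window, centred 40 kb from SBE6, was among the weakest of its distance. It ranked 41st of 42 window pairs in NPC and in tSBE6-Vp64, 40th in tSBE2-Vp64 and 42nd in tSBE(6+2-Vp64) and in ESC. Its mean signal was 0.0158 in NPC, 0.0356 in tSBE6-Vp64, 0.0184 in tSBE2-Vp64, 0.0237 in tSBE(6+2-Vp64) and 0.0241 in ESC. Fragments of the 2 flanking windows are not equally close to SBE6, since Shh_168 abuts the SBE6 window and the first fragment on the far side, Shh_191, begins at 28923745.

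Among the named enhancers, SBE6 with SBE2 (windows of 20 kb to either side) gave the widest differences. The mean signal was 1.28 and 1.17 in NPC, 0.120 in tSBE6-Vp64, 0.943 in tSBE2-Vp64, 0.356 and 0.332 in tSBE(6+2-Vp64), and 0.0292 and 0.195 in ESC. NPC, tSBE2-Vp64 and tSBE(6+2-Vp64) lay above both ESC replicates, and tSBE6-Vp64 lay between them. The log2 differences from ESC were 3.94 in NPC (SE 1.34, limma adjusted p = 0.161), 0.62 in tSBE6-Vp64 (SE 1.64), 3.57 in tSBE2-Vp64 (SE 1.64, limma adjusted p = 0.997) and 2.12 in tSBE(6+2-Vp64) (SE 1.34, limma adjusted p = 0.949). None passed. Without ESC replicate 1 the difference was 2.63 in NPC and 2.26 in tSBE2-Vp64. Without ESC replicate 2 it was 5.26 in NPC, 1.94 in tSBE6-Vp64, 4.88 in tSBE2-Vp64 and 3.43 in tSBE(6+2-Vp64). Such fits lose the spread between the ESC replicates, so no call is read from them. The difference of tSBE6-Vp64 from tSBE2-Vp64 was -2.95 (95% interval -6.68 to 0.79, limma adjusted p = 0.977). No ESC value enters it, and it stayed at -2.95 without either ESC replicate. With the highest fragment pair left out of every contact, the NPC value for SBE2 was -0.37, so its direction rested on 1 pair. The means were then 0.0119 and 0.0121 in NPC against 0.0232 and 0.0114 in ESC.

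SBE4, which lies between SBE6 and SBE2, had its highest contact with SBE6 in tSBE2-Vp64. Its mean signal was 0.0293 and 0.0305 in NPC, 0.0327 in tSBE6-Vp64, 0.0913 in tSBE2-Vp64, 0.0557 and 0.0178 in tSBE(6+2-Vp64), and 0.0241 and 0.0205 in ESC. The difference of tSBE2-Vp64 from ESC was 1.91 on the log2 scale (SE 0.76, limma adjusted p = 0.997) and did not pass. It passed at 2.34 (limma adjusted p = 9.51e-05) without the 21 long-range pairs. Here too 1 pair held the signal. Shh_176 with Shh_255 (chr5:29154045-29155707) had 0.129 and 0.0561 in NPC, 0.164 in tSBE6-Vp64, 2.06 in tSBE2-Vp64, 0.751 and 0.147 in tSBE(6+2-Vp64), and 0.0157 and 0.0235 in ESC, and it made up 75.1% of the SBE6 with SBE4 signal in tSBE2-Vp64. Without it tSBE2-Vp64 had 0.0236 against 0.0244 and 0.0204 in ESC, a log2 difference of 0.07. The approximate position used for SBE4 is 245 kb from the centre of the SBE6 window. Shh_255 lies past it, inside a window of 20 kb to either side but outside one of 10 kb. Whether this contact is that of the SBE4 enhancer itself was not tested.

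The ZRS, the limb enhancer at the far end of the domain, had 0.0104 and 0.00955 in NPC, 0.0139 in tSBE6-Vp64, 0.0105 in tSBE2-Vp64, 0.0211 (0.00856 without the library that stands apart) and 0.00565 in tSBE(6+2-Vp64), and 0.0124 and 0.00591 in ESC. The groups overlapped, except that tSBE6-Vp64 was above both ESC replicates. The log2 differences from ESC ran from 0.15 in NPC to 0.53 in tSBE6-Vp64, and none passed. For tSBE(6+2-Vp64) the difference was 0.30, and -0.23 without that library. Among 24 window pairs 760 kb apart, the SBE6 contact at that distance was above the median in all 5 groups, with rank 6 in NPC, 5 in tSBE6-Vp64, 7 in tSBE2-Vp64 and in tSBE(6+2-Vp64), and 8 in ESC.

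**Figure D3:**
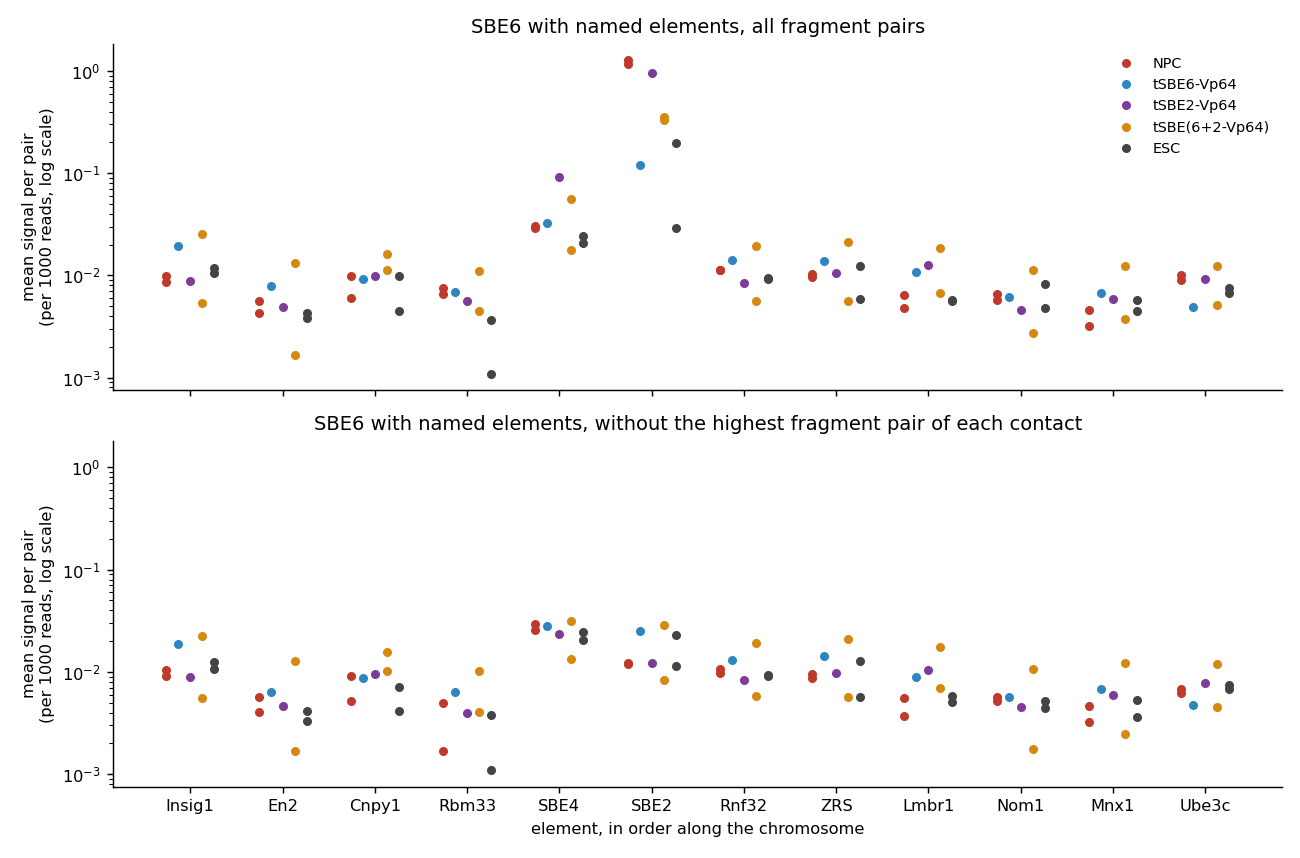
Mean signal per fragment pair (rescaled to 1000 per library, labelled as reads on the axis, log scale) of SBE6 with each of 12 named elements, 1 point per biological replicate. The upper panel holds all fragment pairs, where SBE2 reaches 1.28 in NPC; in the lower panel, without the highest fragment pair of each contact, no NPC value with SBE2 exceeds 0.0121.

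On the Shh side of the domain, 4 genes were examined. Rbm33, which encodes an RNA-binding protein and lies next to Shh, had 0.00748 and 0.00655 in NPC, 0.00685 in tSBE6-Vp64, 0.00555 in tSBE2-Vp64, 0.0109 (0.00441 without the library that stands apart) and 0.00449 in tSBE(6+2-Vp64), and 0.00368 and 0.00107 in ESC. All 6 other replicates lay above both ESC replicates. The log2 differences were 0.96 in NPC, 0.93 in tSBE6-Vp64, 0.72 in tSBE2-Vp64 and 0.98 in tSBE(6+2-Vp64) (0.52 without that library), with SEs of 0.61 to 0.74, and none passed (limma adjusted p = 0.949 or above).

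Part of the NPC signal with Rbm33 came from the pair of Shh_181 with Shh_117 (chr5:28689808-28693301), 205.7 kb apart, which had 0.321 and 0.0946 in NPC, 0.0362 in tSBE6-Vp64, 0.0931 in tSBE2-Vp64, 0.0530 (0.0221 without the library that stands apart) and 0.0302 in tSBE(6+2-Vp64), and was at or near 0 in ESC. It had the smallest p of all SBE6 fragment pairs in NPC against ESC (limma adjusted p = 0.243, not passing). Without it, the contact with Rbm33 was 0.00167 and 0.00492 in NPC and 0.00375 and 0.00109 in ESC, a log2 difference of 0.22. With windows of 10 kb to either side, in place of 20 kb, the NPC difference was 2.72 and passed (limma adjusted p = 0.0120).

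En2, a homeobox gene of the midbrain and hindbrain, had 0.00426 and 0.00559 in NPC, 0.00787 in tSBE6-Vp64, 0.00488 in tSBE2-Vp64, 0.0132 (0.00577 without the library that stands apart) and 0.00164 in tSBE(6+2-Vp64), and 0.00426 and 0.00380 in ESC. Cnpy1, a member of the canopy family linked to FGF signalling in zebrafish, had 0.00974 and 0.00604 in NPC, 0.00917 in tSBE6-Vp64, 0.00977 in tSBE2-Vp64, 0.0162 (0.00884 without it) and 0.0112 in tSBE(6+2-Vp64), and 0.00447 and 0.00991 in ESC. Insig1, a regulator of sterol synthesis, had 0.00857 and 0.00973 in NPC, 0.0192 in tSBE6-Vp64, 0.00875 in tSBE2-Vp64, 0.0253 (0.00989 without it) and 0.00535 in tSBE(6+2-Vp64), and 0.0105 and 0.0117 in ESC. Both NPC replicates lay below both ESC replicates for Insig1, with a log2 difference of -0.22, while for Cnpy1 (0.13) the replicates of each group were spread and overlapped those of the other. The Insig1 order turned round when libraries were rescaled without the 21 long-range pairs. It then had 0.0157 and 0.0163 in NPC and 0.0105 and 0.0135 in ESC. For En2 the difference was 0.17. None passed.

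Within the domain, Rnf32, a RING finger gene, had 0.0114 and 0.0112 in NPC, 0.0141 in tSBE6-Vp64, 0.00835 in tSBE2-Vp64, 0.0195 and 0.00565 in tSBE(6+2-Vp64), and 0.00945 and 0.00913 in ESC. Without the library that stands apart, tSBE(6+2-Vp64) replicate 1 had 0.00777, below both ESC replicates. NPC lay above ESC in both replicates by 0.22 on the log2 scale, which did not pass. The promoter region of Lmbr1, the gene that hosts the ZRS, had 0.00479 and 0.00647 in NPC, 0.0108 in tSBE6-Vp64, 0.0126 in tSBE2-Vp64, 0.0184 (0.0114 without that library) and 0.00675 in tSBE(6+2-Vp64), and 0.00554 and 0.00567 in ESC. Its log2 differences were -0.00 in NPC, 0.68 in tSBE6-Vp64, 0.87 in tSBE2-Vp64 and 0.75 in tSBE(6+2-Vp64), or 0.46 there without that library, and none passed.

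Beyond Lmbr1, the contacts with Nom1, a nucleolar protein gene, Mnx1, a homeobox gene of motor neurons, and Ube3c, a ubiquitin ligase gene, ranged from 0.00316 to 0.0101 in NPC, 0.00488 to 0.00665 in tSBE6-Vp64, 0.00461 to 0.00914 in tSBE2-Vp64, 0.00271 to 0.0125 in tSBE(6+2-Vp64) and 0.00445 to 0.00825 in ESC. Log2 differences from ESC ran from -0.37, for Ube3c in tSBE6-Vp64, to 0.34, for Mnx1 in tSBE(6+2-Vp64). None passed. Without the library that stands apart, tSBE(6+2-Vp64) replicate 1 had 0.00574 with Nom1, 0.00633 with Mnx1 and 0.00802 with Ube3c, in place of 0.0113, 0.0122 and 0.0125.

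**Figure D4:**
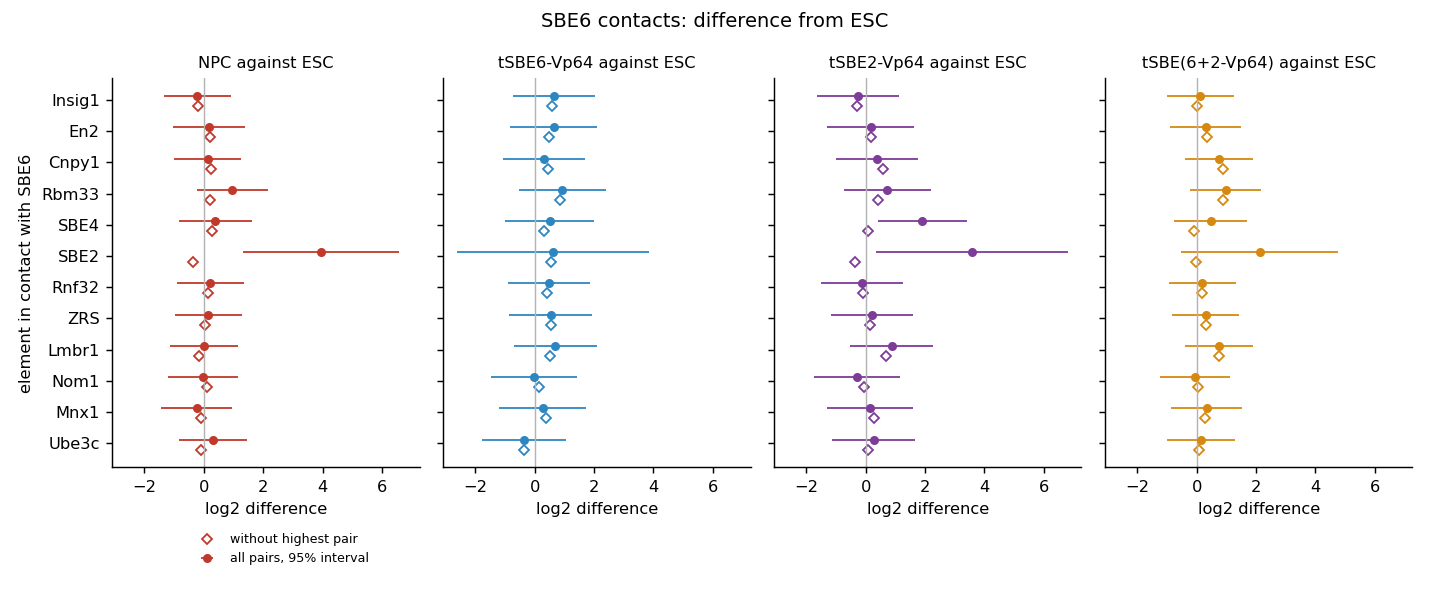
Log2 difference from ESC of SBE6 with each of 12 elements, in the limma fit over all element pairs. Filled points with bars are values with 95% intervals, and open diamonds are the values without the highest fragment pair of each contact; in NPC the SBE2 value is 3.94 with all pairs and -0.37 without it.

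Counted over the 12 elements, 0 passed in any of the 5 comparisons by limma, as did 0% of all 91 element pairs. At an unadjusted p under 0.05 by limma, 1 of 12 passed in NPC, 0 in tSBE6-Vp64, 2 in tSBE2-Vp64, 0 in tSBE(6+2-Vp64) and 0 in tSBE6-Vp64 against tSBE2-Vp64. Over all element pairs these shares were 2.2%, 0%, 2.2%, 3.3% and 0%. Every NPC replicate lay above every ESC replicate for 6 of the 12 elements, against 20.9% of all element pairs, and below for 1 of the 12, against 26.4%. For tSBE6-Vp64, 8 lay above both ESC replicates and 1 below, against 47.3% and 12.1% of all element pairs. For tSBE2-Vp64, 7 lay above and 3 below, against 34.1% and 26.4%. For tSBE(6+2-Vp64), 4 lay above and 0 below, against 12.1% and 3.3%. Without the library that stands apart, 3 lay above and 2 below in that group, against 9.89% and 26.4%. The median log2 difference of the 12 was 0.16 in NPC, 0.52 in tSBE6-Vp64, 0.24 in tSBE2-Vp64 and 0.32 in tSBE(6+2-Vp64), beside -0.03, 0.28, 0.05 and 0.19 over all 91 pairs. Without that library the median in tSBE(6+2-Vp64) was -0.06, beside -0.20 over all pairs, so its sign rested on that library.

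Over the 42 windows, every NPC replicate lay above every ESC replicate for 10, against 16.1% of all window pairs, and below for 9, against 32.3%. For the 20 windows of the domain past SBE6, the median log2 difference in NPC was -0.22, with 7 windows above 0 and 13 below. For the 2 windows between Shh and SBE6 it was -1.13, with 0 above 0. The 12 windows of the Shh-side flank had a median of 0.13 and the 8 windows beyond Lmbr1 one of 0.19, while all window pairs had -0.18. Without the 21 long-range pairs, which moved the median of all window pairs to 0.33, the same groups had 0.41, -0.45, 0.64 and 0.72, so the sign of the change within the domain past SBE6 turned, and the flanks stayed above the median of all pairs.

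In tSBE6-Vp64, 37 of the 42 windows were above 0 in the log2 difference from ESC, with a median of 0.38 beside 0.28 over all window pairs. In tSBE2-Vp64, 22 of 42 were above 0, with a median of 0.03 beside -0.03. In tSBE(6+2-Vp64), 32 of 42 were above 0, with a median of 0.21 beside 0.24. Without the library that stands apart, 15 of 42 were above 0 in that group, with a median of -0.22 beside -0.07, so this direction too rested on that library. Above both ESC replicates lay 30 windows in tSBE6-Vp64, 13 in tSBE2-Vp64 and 6 in tSBE(6+2-Vp64), against 48.1%, 28.1% and 15.9% of all window pairs. Below both lay 4, 10 and 1, against 13.7%, 29.6% and 1.88%. Without that library, 6 lay above and 10 below in tSBE(6+2-Vp64), against 12.4% and 18.4%.

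At the level of single fragment pairs, 1600 of the 1606 passed the filter of being above 0 in at least 2 replicates. By limma, 0 of the 1600 were called in NPC, in tSBE6-Vp64, in tSBE2-Vp64 or in tSBE(6+2-Vp64) against ESC, or in tSBE6-Vp64 against tSBE2-Vp64, against 0.00348% of all fragment pairs in NPC and 0% in the others. At an unadjusted p under 0.05 by limma, 54 passed in NPC, 20 in tSBE6-Vp64, 42 in tSBE2-Vp64, 39 in tSBE(6+2-Vp64) and 25 in the direct contrast, or 3.38%, 1.25%, 2.63%, 2.44% and 1.56% of the 1600, beside 4.22%, 1.01%, 2.25%, 2.43% and 1.27% of all 28769.

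Some weaker fragment pairs, chosen here after their values were seen, were near 0 in ESC and higher elsewhere. Shh_176 with Shh_506, 964.6 kb away beyond Lmbr1, had 0.0372 and 0.110 in NPC, 0.0194 in tSBE6-Vp64, 0.04998 in tSBE2-Vp64, 0.0403 and 0.123 in tSBE(6+2-Vp64), and 9.11e-05 and 4.84e-05 in ESC. Shh_178 with Shh_223, 139.2 kb away in the desert, went the other way, being at or near 0 in NPC and at 0.0528 and 0.0572 in ESC, with 0.0482 in tSBE6-Vp64, 0.0184 in tSBE2-Vp64 and 0.0488 (0.0271 without the library that stands apart) and 0.0321 in tSBE(6+2-Vp64). Shh_181 with Shh_267, 287.6 kb away, split the ESC replicates, with 0.903 and 1.28 in NPC, 0.0240 in tSBE6-Vp64, 0.223 in tSBE2-Vp64, 0.199 (0.351 without that library) and 0.870 in tSBE(6+2-Vp64), and 0.00993 and 1.66 in ESC. None passed the test in any comparison.

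As a share of all SBE6 signal, contacts outside the Shh domain made up 6.93% and 6.83% in NPC, 20.3% in tSBE6-Vp64, 8.30% in tSBE2-Vp64, 23.0% and 13.2% in tSBE(6+2-Vp64), and 21.8% and 14.4% in ESC. NPC and tSBE2-Vp64 lay below both ESC replicates. The exact two-sided permutation test of NPC against ESC gave p = 0.333, the smallest that 2 against 2 allows. Without Shh_178 with Shh_295 the order turned round, with 30.5% and 27.7% in NPC, 24.0% in tSBE6-Vp64, 26.0% in tSBE2-Vp64, 33.8% and 26.2% in tSBE(6+2-Vp64), and 22.0% and 21.2% in ESC. All NPC and transfected replicates then lay above both ESC replicates. Without its technical replicate 1, tSBE(6+2-Vp64) replicate 1 had 13.3% with all pairs and 27.2% without Shh_178 with Shh_295. With all pairs, both replicates of that group then lay below both ESC replicates.

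**Figure D5:**
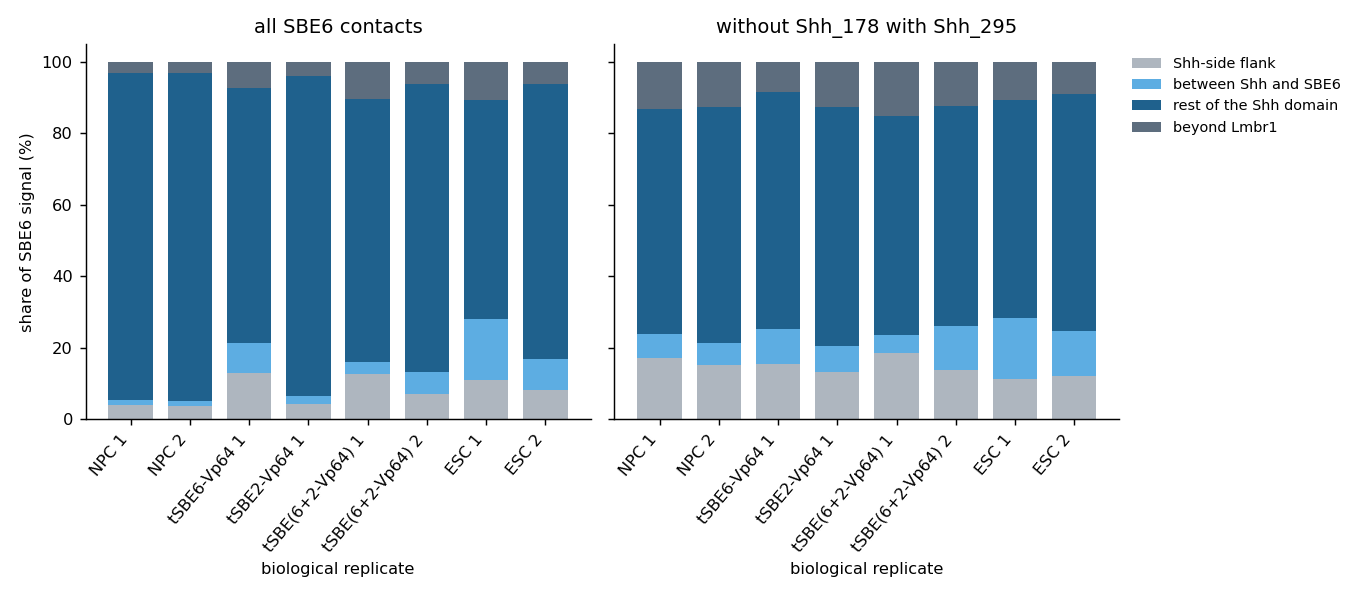
Share of SBE6 signal (%) that joins the Shh-side flank, the stretch between Shh and SBE6, the rest of the Shh domain and the sequence beyond Lmbr1, per biological replicate, with all SBE6 contacts (left) and without Shh_178 with Shh_295 (right). The rest of the domain holds 91.6% in both NPC replicates on the left, and 62.8% and 66.0% on the right.

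The stretch between Shh and SBE6 held 1.52% and 1.56% of SBE6 signal in NPC, 8.34% in tSBE6-Vp64, 2.30% in tSBE2-Vp64, 3.42% and 6.23% in tSBE(6+2-Vp64), and 16.9% and 8.57% in ESC. All other replicates lay below both ESC replicates. Without Shh_178 with Shh_295 it held 6.70% and 6.31% in NPC, 9.89% in tSBE6-Vp64, 7.21% in tSBE2-Vp64, 5.07% and 12.3% in tSBE(6+2-Vp64), and 17.1% and 12.6% in ESC, so ESC stayed above the rest while the order of the others changed. Without the library that stands apart, tSBE(6+2-Vp64) replicate 1 had 5.13% with all pairs and 10.505% without that pair. This class holds 15 fragment pairs, and the 2 against 2 design cannot pass a test on it (exact two-sided permutation p = 0.333 for NPC).

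Signal fell less with distance in NPC than in ESC. The slope of log10 mean signal on log10 distance was -0.234 and -0.313 in NPC, -0.604 in tSBE6-Vp64, -0.283 in tSBE2-Vp64, -0.271 and -0.538 in tSBE(6+2-Vp64), and -0.694 and -0.457 in ESC. The slope of all other fragment pairs was also less steep in NPC than in ESC, at -0.288 and -0.392 in NPC, -0.669 in tSBE6-Vp64, -0.395 in tSBE2-Vp64, -0.384 and -0.403 in tSBE(6+2-Vp64), and -0.678 and -0.497 in ESC. In tSBE(6+2-Vp64) replicate 2 the SBE6 slope was steeper than in ESC replicate 2. Its slope of all other pairs was less steep than in both ESC replicates. Without the library that stands apart, the SBE6 slope of tSBE(6+2-Vp64) replicate 1 was -0.305. Without Shh_178 with Shh_295 the SBE6 slopes were -0.350 and -0.428 in NPC and -0.699 and -0.504 in ESC.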

How the data were processed

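The deposited matrices give, per pair of HindIII fragments, a signal that the authors had scaled to about 1000 per library; in each library 100% of the low values were whole multiples of its smallest step. The build is mm9, per the fragment names and the submitters' processing notes; the aligner is not given in the sources used here. Here each library was rescaled to 1000 over shared fragments, 1 NPC matrix found under both replicates (largest difference 4.02e-08) was counted once, and technical replicates were averaged. Fragment, 40-kb window and element pairs were tested with limma 3.58.1 (R 4.3.3; trend, Benjamini-Hochberg over the whole family) on log2(signal + pseudocount), the pseudocount being the 5th percentile of values above 0: 4.52e-05, 0.00305 and 0.00289. For windows and elements limma took each variance from its trend alone, with 2709 and 273 degrees of freedom. Element positions are approximate. The SBE6 contacts, elements and lists were chosen with earlier results of these data known. All 12 elements are named; among fragment pairs, those that pass, those over 50 kb with more than 0.5% of a library and the 3 highest are named by rule.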

Additional observations from a re-analysis of the deposited data

Results flagged for a closer look

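Among the 4 tSBE(6+2-Vp64) libraries, technical replicate 1 of replicate 1 stood far from the others in 2 of 14 measures examined. SBE6 with Rnf32 had 0.0313 there, against 0.00777 in the next library, and SBE6 with the ZRS had 0.0336, against 0.00856. Chance alone places about 1 in 20 such groups beyond the limit used. The same library was the highest of the 4 in 9 of the 10 other element contacts.

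Several matrices list fragments that not all libraries share, which entered no comparison. Shh_386 (chr5:29527531-29527778) had a summed signal of 0.110 with the SBE6 window in technical replicate 1 of tSBE(6+2-Vp64) replicate 1, and Shh_68 (chr5:28547549-28547729) had 0.0472 there. In the copy of the duplicated NPC matrix placed under replicate 2, which lists more fragments, Shh_174 (chr5:28880401-28880839), itself inside the SBE6 window, had 0.271 with the other window fragments. Shh_232 had 0.0131 and Shh_163 had 0.00256 in that copy. Each is above the limit of 3 reads in its library.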

How the results depend on the processing

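Counts of SBE6 pairs past the threshold were recomputed under up to 23 alternatives. Leave-one-out fits without an ESC replicate lose the spread between the 2 ESC replicates, so a count in them is not read as a call. For windows in NPC, where 1 passed, 0 passed with quantile normalization, with observed over expected values, without the 21 long-range pairs, with 20-kb windows, without Shh_178 with Shh_295, without each contact's highest fragment pair, and without technical replicate 1 of tSBE(6+2-Vp64) replicate 1 (the last 3 chosen after seeing the data); leaving out 1 replicate at a time gave 0 to 2. In tSBE2-Vp64 against ESC, where 0 passed, 1 window passed without the long-range pairs and 1 without the trend. Leave-one-out counts of windows ran from 0 to 1 in tSBE6-Vp64, tSBE2-Vp64, tSBE(6+2-Vp64) and the direct contrast. For elements, where 0 passed in each comparison, 1 passed without the trend in NPC, tSBE2-Vp64, tSBE(6+2-Vp64) and tSBE6-Vp64 against tSBE2-Vp64, 1 with narrower windows in NPC, and 1 without long-range pairs in tSBE2-Vp64, and leave-one-out counts ran from 0 to 1 in all 5 comparisons. For fragment pairs, where 0 passed, quantile normalization gave 1 in NPC, leave-one-out gave 0 to 1 in the comparisons other than tSBE(6+2-Vp64) against ESC, and 0 to 69 there, the 69 without its replicate 2, when the replicate that holds the library standing apart is alone. The cause was not tested.

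The share outside the domain, as the difference from ESC in percentage points, was -11.2 in NPC, 2.19 in tSBE6-Vp64, -9.77 in tSBE2-Vp64 and -0.00 in tSBE(6+2-Vp64), or -4.84 there without the library that stands apart. It turned to 7.52, and in the transfected groups tSBE2-Vp64 and tSBE(6+2-Vp64) to 4.40 and 8.43, without the long-range pairs, and to 7.53, 4.40 and 8.40 without Shh_178 with Shh_295, as that pair lies inside the domain. Leaving out 1 replicate gave -1.50 to 5.87 in tSBE6-Vp64 and -4.90 to 4.89 in tSBE(6+2-Vp64). The slope difference of tSBE6-Vp64, -0.0287, ran from -0.148 to 0.0901.

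With the biological replicate number as a replicate block, the SBE2 window in NPC had the same log2 difference of 3.64 (limma adjusted p = 0.0197), and no count of SBE6 pairs changed. Correlations of deviations by replicate number were -0.07 for NPC with ESC, 0.42 for tSBE(6+2-Vp64) with ESC and -0.05 for NPC with tSBE(6+2-Vp64). The numbers thus did not pair NPC with either group, while tSBE(6+2-Vp64) and ESC shared part of their deviations. Of 1380 element values under alternatives, 105 changed sign without a call on either side and 0 with one. A count model on reads recovered from the smallest step was planned and not run, because a check fragment by fragment did not find whole reads, although the low values pooled over each library were whole multiples of 1 step; the implied depths rest on those low values. Precision is limited by 2 replicates in 3 groups and 1 in the others; signal below about 3 reads of a library cannot be told from 0.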
